A study of Mus musculus with 23 samples.

Results

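Ascl2, Hand1, Plac1, Fosl1, Tpbpa, Prl3d1 and Gcm1 are genes of differentiating mouse trophoblast, chiefly of the ectoplacental cone and of trophoblast giant cells. They were chosen by name, 7 genes of the 23725 lines of a deposited table of read counts, and all 7 were in that table. The table holds RNA-seq of mouse embryos at E6.25 (days of embryonic age), just after implantation, dissected into extra-embryonic tissue (ExE) and epiblast (E, the source of the embryo proper). Embryos carried a gene trap of Tet1, which encodes an enzyme that oxidises 5-methylcytosine in DNA, on both alleles (Tet1gt/gt), on 1 allele (Tet1gt/wt) or on neither (wt, wild type), and the series asks what TET1 does in each lineage. There were 3 ExE libraries of Tet1gt/gt embryos, 4 of Tet1gt/wt embryos and 4 of wt embryos, and 4 E libraries of each genotype, 23 in all. Each library came from lysates of 6 or more embryos of 2 to 3 litters, pooled once the genotype of each embryo was known. A pool thus averages several embryos and both sexes may be mixed in it, and the labels do not say whether the ectoplacental cone was kept with the ExE.

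In the mouse, the ExE next to the epiblast holds trophoblast stem cells, which depend on fibroblast growth factor from the epiblast and on regulators such as Cdx2, Elf5 and Eomes. Cells that leave this niche form the ectoplacental cone, which later gives the spongiotrophoblast, and trophoblast giant cells, which line the implantation site and secrete hormones of the prolactin family. Ascl2 and Hand1 encode basic helix-loop-helix (bHLH) factors, proteins that bind E-box motifs in DNA as dimers with E proteins. Ascl2 is an imprinted gene needed for the spongiotrophoblast, and Hand1 is needed for giant cells. Fosl1 encodes a subunit of the AP-1 transcription factor, Plac1 is an X-linked gene of trophoblast needed for normal placental size, Tpbpa is the classical marker of the ectoplacental cone and spongiotrophoblast, Prl3d1 encodes placental lactogen I of giant cells, and Gcm1 encodes a factor that starts the folding of the chorion into the labyrinth.

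Libraries held 4912215 to 9494814 counts, and levels are CPM (counts relative to the library total, on the usual scale) after TMM scaling, so that a single count stood for 0.104 to 0.228 CPM. Tet1 itself was at 21.5 to 37.7 CPM in Tet1gt/gt ExE, 39.3 to 57.1 CPM in Tet1gt/wt ExE and 77.0 to 109.9 CPM in wt ExE, with no overlap between genotypes. In E, Tet1 was at 55.2 to 113 CPM in Tet1gt/gt, 66.6 to 147 CPM in Tet1gt/wt and 127 to 197 CPM in wt pools. The dissection labels fit the defining markers: Cdx2 was at 100.1 to 180.0 CPM and Elf5 at 112 to 238 CPM in ExE, against 0.329 to 33.8 CPM and 0.106 to 35.9 CPM in E, while Pou5f1, an epiblast regulator, was at 13.5 to 394 CPM in ExE and 629 to 1172 CPM in E. Transcripts that mark each tissue were thus also counted in pools of the other. In 3 libraries, ExE Tet1gt/gt pool 3, E Tet1gt/gt pool 3 and E Tet1gt/wt pool 4, short transcripts read high: regressed on log2 transcript length, a gene's log2 deviation from its group mean had a slope between -0.37 and -0.35 there, while the remaining 20 libraries gave -0.15 to 0.21. The tests of the 7 genes were repeated without these libraries.

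Ascl2, Hand1, Plac1 and Fosl1 were transcribed in ExE and were low in E, whereas Tpbpa and Gcm1 were at or near 0 in both tissues and Prl3d1 was found mainly in a few Tet1gt/gt pools. Per kilobase of transcript, Hand1 led in ExE with 192 ± 65.5 CPM per kb (SD, n = 11), followed by Ascl2 with 68.1 ± 50.9 and Plac1 with 28.9 ± 44.8 CPM per kb. Prl3d1 at 1.90 ± 4.81, Fosl1 at 1.20 ± 0.474 and Gcm1 at 0.0918 ± 0.210 CPM per kb came next, and Tpbpa was at 0. Hand1 stood above Ascl2 and Ascl2 above Plac1 in 11 of 11 ExE pools, but Prl3d1 stood above Fosl1 in only 2 of 11, so the order of that pair rests on those pools.

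**Figure D1:**
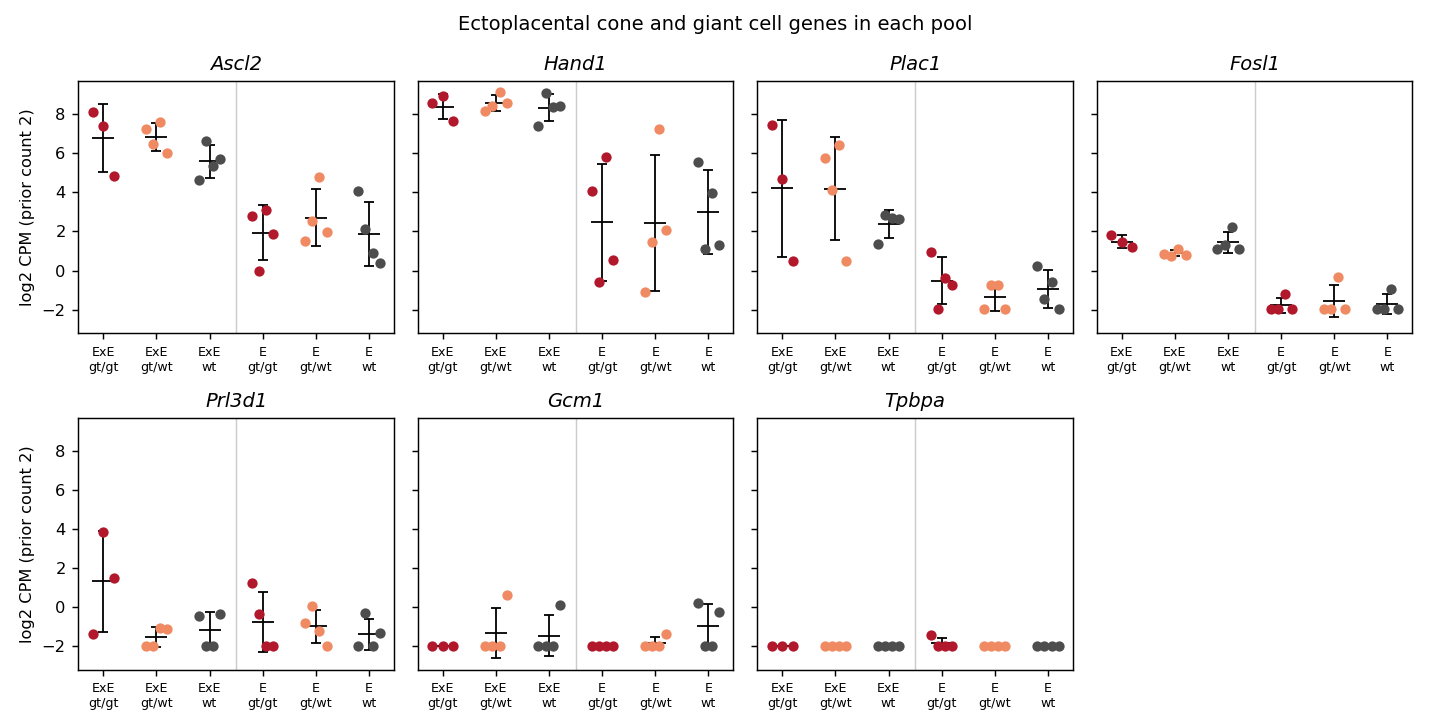
Level of each of the 7 genes in every pool, as log2 CPM with a prior count of 2 (vertical axis), by tissue and Tet1 genotype (horizontal axis). Dots are pools, bars are the mean ± SD of a group of 3 or 4 pools. Ascl2, Hand1, Plac1 and Fosl1 lie higher in ExE than in E, and Tpbpa and Gcm1 stay near the lowest value that can be drawn.

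Hand1 was the most abundant of the 7 in ExE per kilobase. It was at 377, 488 and 203 CPM in Tet1gt/gt ExE pools, 290.4, 339, 554 and 376 CPM in Tet1gt/wt ExE pools and 171, 546, 332 and 348 CPM in wt ExE pools. In E it was at 16.7, 0.416, 56.6 and 1.19 CPM in Tet1gt/gt, 0.212, 2.53, 150.2 and 3.94 CPM in Tet1gt/wt and 46.6, 1.87, 15.6 and 2.22 CPM in wt pools. Every ExE pool lay above every E pool, yet single E pools, above all Tet1gt/wt pool 4, approached the lowest ExE pool. How many of all genes part the tissues in this way was not counted, here and for the genes that follow. Such orders only describe these pools. Over all genotypes Hand1 was 16.0-fold higher in ExE (log2 fold change 4.00 ± 0.78 SE, edgeR quasi-likelihood test, Benjamini-Hochberg adjusted p = 0.000231). Without E Tet1gt/wt pool 4 the log2 fold change was 5.40. In a bulk sample, fewer cells of a type and less RNA per cell cannot be told apart, here and in every comparison that follows.

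Ascl2 was at 282, 169 and 28.3 CPM in Tet1gt/gt ExE pools, 153, 90.1, 196 and 65.6 CPM in Tet1gt/wt ExE pools and 24.5, 99.8, 40.7 and 52.7 CPM in wt ExE pools. In E it was at 6.72, 0.728, 8.46 and 3.39 CPM in Tet1gt/gt, 2.55, 5.64, 27.4 and 3.68 CPM in Tet1gt/wt and 16.6, 4.17, 1.63 and 1.04 CPM in wt pools. Of the 11 ExE pools 10 lay above every E pool, the exception being wt pool 1, which was below E Tet1gt/wt pool 4. Ascl2 was 16.0-fold higher in ExE (log2 fold change 4.00 ± 0.52 SE, adjusted p = 1.93e-06).

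Plac1 was nearly absent from E and ranged widely within ExE. It was at 176, 25.7 and 1.13 CPM in Tet1gt/gt ExE pools, 53.8, 16.9, 85.5 and 1.17 CPM in Tet1gt/wt ExE pools and 2.28, 6.97, 6.29 and 5.95 CPM in wt ExE pools, against 0 to 1.68 CPM in the 12 E pools, 4 of which had no count. Of the 11 ExE pools, 9 lay above every E pool, and the lowest, Tet1gt/gt pool 4 and Tet1gt/wt pool 5, fell within the E range. The log2 fold change of Plac1 was 6.10 ± 0.80 SE (68.7-fold, adjusted p = 1.93e-06), and it was 5.32 without ExE Tet1gt/gt pool 1.

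Fosl1 was low in absolute terms but confined almost wholly to ExE. It was at 3.24, 2.50 and 2.01 CPM in Tet1gt/gt, 1.53, 1.43, 1.90 and 1.49 CPM in Tet1gt/wt and 1.92, 2.21, 4.39 and 1.89 CPM in wt ExE pools, while 9 of the 12 E pools had no count and the highest was at 0.528 CPM. No ExE pool overlapped an E pool. Its log2 fold change was 4.76 ± 0.76 SE (27.0-fold, adjusted p = 2.29e-05), resting on 193 counts in ExE and 6 in E, and single E pools moved it, to 5.78 without Tet1gt/wt pool 4, 5.55 without wt pool 4 and 5.34 without Tet1gt/gt pool 3. Fosl1 carries an uncertainty of its own, since 56.9% of the 75-base windows of its transcript also lie in Ccdc85b, transcribed from the opposite strand, and the library kit does not mark strand. Ccdc85b was at 24.3 to 91.8 CPM in ExE and 24.1 to 79.0 CPM in E, overlapping ranges, and the part of Ccdc85b reads in the Fosl1 count was not tested.

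Thus 4 of the 7 genes were called higher in ExE and none lower, where 22.1% of the 13595 genes tested were called higher, 23.9% lower and 46.1% in either direction. Plac1 and Fosl1 passed the filter on low counts only through ExE, so the count describes the genes and supports nothing further. In the 10 pairs of ExE and E pools that share a genotype and a number, Ascl2, Hand1, Plac1 and Fosl1 were each higher in the ExE pool in 10 of 10. Elf5 and Cdx2 were too. The share of all genes with this pattern was not counted, so it only describes the pairs.

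The same contrast was made within each genotype. In Tet1gt/gt embryos 9.12% of genes were called higher in ExE, 7.66% lower and 16.8% in either direction, and Plac1 (log2 fold change 6.66 ± 1.34 SE, adjusted p = 0.00207), Ascl2 (5.07 ± 0.96, 0.00129), Hand1 (4.26 ± 1.39, 0.0383) and Fosl1 (adjusted p = 0.00873) were among the higher ones. In Tet1gt/wt embryos 12% of genes were called higher, 14.9% lower and 27% in either direction, with Plac1 (7.79 ± 1.50, 0.000517), Ascl2 (3.72 ± 0.88, 0.00305) and Fosl1 (0.0309) among them, while Hand1 missed the threshold (3.33 ± 1.30, 0.0604). In wt embryos 9.28% of genes were called higher, 7.98% lower and 17.3% in either direction, with Hand1 (4.40 ± 1.37, 0.0291), Plac1 (3.85 ± 1.31, 0.0462), Ascl2 (3.21 ± 0.87, 0.0134) and Fosl1 (0.0104) among them. The genotypes thus gave the same direction for all 4 genes. Because E pools of 1 genotype held only 1 to 3 Fosl1 counts, all from 1 pool, its size is given as a ratio of summed counts with an exact 95% interval for counting error alone: 78.0 (13.4 to 3142) in Tet1gt/gt, 16.7 (5.43 to 83.5) in Tet1gt/wt and 40.4 (10.9 to 339) in wt.

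Single pools carry much of these within-genotype values. Hand1 in Tet1gt/wt was called under 5 of the 7 other settings, with log2 fold changes of 3.29 by DESeq2 (adjusted p = 0.0401), 6.84 by limma-voom (0.00019), 7.70 with the pool number as a block (0.000283), 7.49 without the 3 libraries with steep length slopes (2.94e-05) and 7.50 without the 5 E pools described next (7.52e-08). Leaving out E pool 4 alone gave 7.50 (0.00031). For Hand1 in Tet1gt/gt the call was lost in 5 of 7 fits that left out a pool (adjusted p 0.0654 to 0.095; E pools 1, 2 and 4 and ExE pools 1 and 3), and in wt in 4 of 8 (0.0638 to 0.0852; E pools 2, 4 and 5 and ExE pool 2). Its value was 5.84 without E Tet1gt/gt pool 3 and 5.74 without E wt pool 1. For Plac1 in wt the call was lost in 6 of 8 such fits (0.0763 to 0.122; E and ExE pools 2, 4 and 5), and by limma-voom it was lost in all 3 genotypes, at adjusted p = 0.175 in Tet1gt/gt, 0.0954 in Tet1gt/wt and 0.347 in wt. Without the 5 E pools described next, Plac1 in wt was at 6.12 and not called (0.0892). For Fosl1 the call was lost in Tet1gt/wt in 4 of 8 fits (0.0527 to 0.0841; E pools 2, 3 and 5 and ExE pool 3) and in Tet1gt/gt with the pool number as a block (0.0501). Ascl2 kept its call in every such fit, at 4.37 without ExE Tet1gt/gt pool 1, 5.01 without E Tet1gt/wt pool 4 and 4.53 without E wt pool 1. For Plac1 the values furthest from the full fit were 4.32 without ExE Tet1gt/gt pool 1, 8.00 without E Tet1gt/gt pool 1, 7.24 without ExE Tet1gt/gt pool 4, 8.52 without E Tet1gt/wt pool 3, 7.07 without ExE Tet1gt/wt pool 3 and 4.84 without E wt pool 1.

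**Figure D2:**
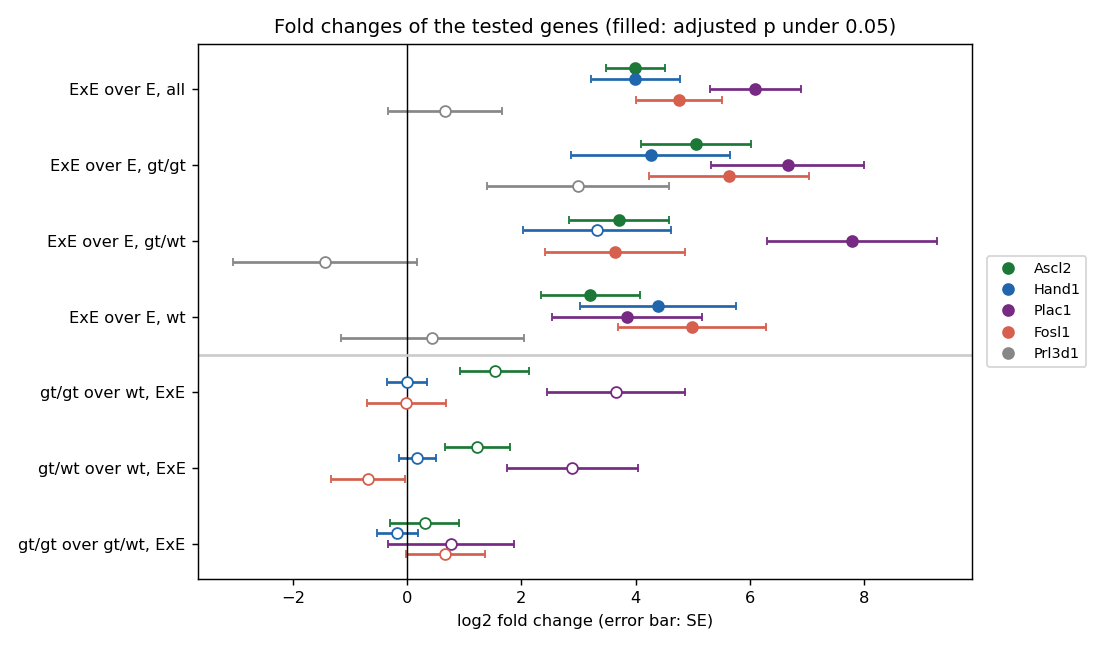
Log2 fold change (horizontal axis, error bars SE) of the 5 genes that passed the filter on low counts, for ExE over E in all genotypes together and in each genotype, and for the genotype contrasts in ExE (vertical axis). Filled circles have an adjusted p under 0.05. Ascl2, Hand1, Plac1 and Fosl1 lie right of 0 in the tissue contrasts, and no circle of a genotype contrast is filled.

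The Hand1 and Ascl2 counts in E were uneven and went with other trophoblast transcripts. In 5 of the 12 E pools, wt pools 1 and 4, Tet1gt/wt pool 4 and Tet1gt/gt pools 1 and 3, Cdx2 was at 13.3 to 33.8 CPM and Elf5 at 11.8 to 35.9 CPM, against 0.329 to 5.78 CPM and 0.106 to 5.38 CPM in the other 7. Hand1 was at 15.6 to 150.2 CPM in those 5 pools and 0.212 to 3.94 CPM in the other 7, with no overlap. Ascl2 overlapped, at 1.63 to 27.4 CPM and 0.728 to 5.64 CPM, while Fosl1 was found in 3 of the 5 and in none of the other 7. The share of all genes that part these E pools was not counted. The part of carried-over ExE in these values was not tested. Without the 5 pools, a choice made after the data were seen, the ExE over E log2 fold change was 7.95 for Hand1, 7.73 for Plac1, 7.16 for Fosl1 and 5.25 for Ascl2, each still called.

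**Figure D3:**
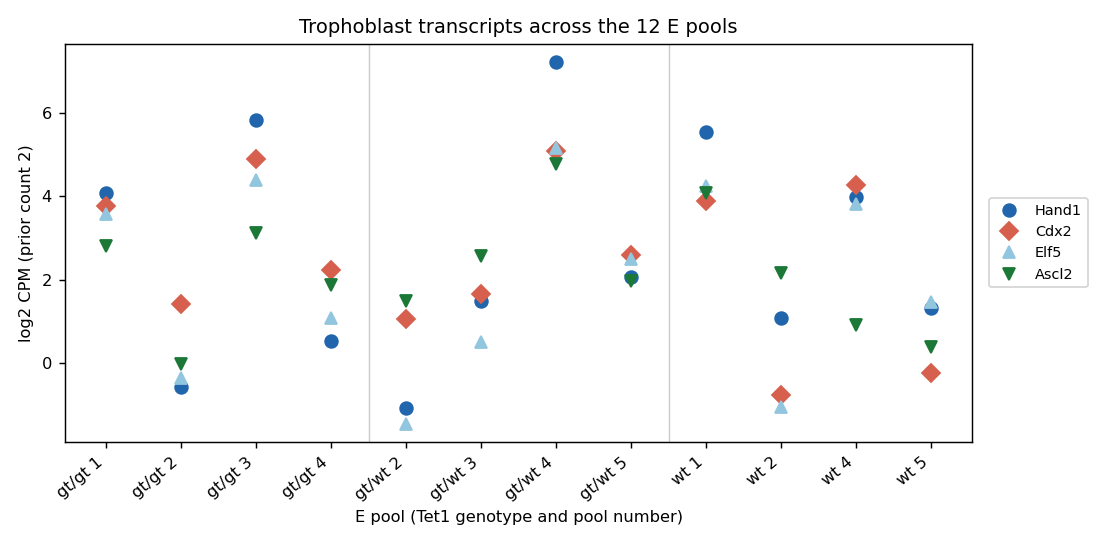
Hand1, Ascl2 and the trophoblast stem cell genes Cdx2 and Elf5 in the 12 E pools (horizontal axis, Tet1 genotype and pool number), as log2 CPM with a prior count of 2 (vertical axis). The 5 pools with the most Cdx2 and Elf5 are those in which Hand1 reached 15.6 CPM or more, the highest being Tet1gt/wt pool 4 at 150.2 CPM.

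Genes that act beside the 7 were examined in the same contrast, in which 22.1% of all genes were called higher and 23.9% lower. Among 20 other genes of the ectoplacental cone, spongiotrophoblast and glycogen cells, 18 were tested, of which 14 rose and 1 fell in ExE (median log2 fold change 2.98, against -0.02 over all genes). Those named by smallest p were Cdkn1c, a cell cycle inhibitor (2.37 ± 0.20, adjusted p = 8.77e-09), Peg10, a retrotransposon-derived gene of the placenta (3.93 ± 0.47, 5.56e-07), Phlda2, whose imprinted expression limits growth of the placenta (3.77 ± 0.47, 1.18e-06), and Igf2, a growth factor (3.87 ± 0.53, 3.41e-06). Of 15 trophoblast stem cell regulators, 14 rose and 0 fell (median 3.78), led by Ets2 (2.35 ± 0.18, 1.70e-09) and Fgfr2 (3.98 ± 0.32, 3.57e-09), the receptor for the epiblast's fibroblast growth factor. Of the 20 cone genes, 18 passed the filter on low counts in a fit of ExE libraries and 11 in a fit of E libraries, so part of that list was tested only because it is high in ExE.

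Giant cell genes divided into those detected and those not. Of 24 other giant cell genes only 8 passed the filter, of which 5 rose and 1 fell (median 2.43), and 10 to 16 of the 24 had no count in a given ExE pool. Those that rose included Limk2, an actin-regulating kinase (1.86 ± 0.15, adjusted p = 3.43e-09), Bhlhe40, a bHLH repressor (3.01 ± 0.34, 3.19e-07), Mmp9, a matrix protease (4.38 ± 0.57, 1.84e-06), and Gata2, a regulator of placental lactogen genes (4.43 ± 0.67, 1.20e-05). Of the 24 giant cell genes, 8 passed the filter in a fit of ExE libraries and 6 in a fit of E libraries. Part of that list was thus tested only because it is high in ExE. The giant cell hormone gene Prl2c2 had no count in any of the 23 libraries. Whether its reads are shared with related genes of the list, such as Prl2c3, was not examined, and the counting program is not given. Among 15 syncytiotrophoblast and labyrinth genes, where Gcm1 acts, 13 were tested, 6 rose and 4 fell (median 0.29, beside 22.1% higher and 23.9% lower over all genes), with Cebpb up (2.10 ± 0.27, 1.83e-06) and Ly6e, which encodes the receptor for syncytin A, down (-0.97 ± 0.15, 1.09e-05). Synb, a fusogen gene of the syncytiotrophoblast, had no count in any library and Syna had 4 counts in ExE and 3 in E.

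The bHLH partners of Ascl2 and Hand1 and their inhibitors were divided. Of 10 such genes 1 rose, 5 fell and the other 4 were not called in ExE (median -0.50), where 22.1% of all genes rose and 23.9% fell. The E proteins Tcf3 (-1.07 ± 0.14, adjusted p = 1.97e-06) and Tcf12 (-1.66 ± 0.24, 7.33e-06) and the inhibitor Id3 (-2.32 ± 0.31, 2.56e-06) fell, while the inhibitor Id2 rose (3.48 ± 0.42, 7.34e-07). Of 12 AP-1 subunits and targets, the partners and targets of Fosl1, 10 were tested, 5 rose and 3 fell (median 1.53). In a fit of ExE libraries 10 passed the filter and in a fit of E libraries 8, so part of this list too was tested only through ExE. The subunits Junb (3.33 ± 0.33, 5.18e-08) and Fosl2 (3.46 ± 0.40, 3.99e-07) rose, and Vim (-3.12 ± 0.37, 5.19e-07) and Mmp14 (-2.38 ± 0.31, 1.99e-06), which encode an intermediate filament and a membrane protease, fell.

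Within ExE the 7 genes did not vary alike. The highest pool exceeded the lowest by 155-fold for Plac1 and 11.5-fold for Ascl2, against 3.25-fold for Hand1, 3.06-fold for Fosl1, 2.14-fold for Elf5 and 1.80-fold for Cdx2. The pools with most Ascl2 were Tet1gt/gt pool 1 (282 CPM), Tet1gt/wt pool 3 (196 CPM), Tet1gt/gt pool 3 (169 CPM) and Tet1gt/wt pool 1 (153 CPM), and these were also the 4 highest for Plac1, at 176, 85.5, 25.7 and 53.8 CPM. Tet1gt/gt pool 4 had 28.3 CPM of Ascl2 and 1.13 CPM of Plac1, and wt pool 1 had 24.5 and 2.28 CPM, although Elf5 was at its highest, 238 CPM, in Tet1gt/gt pool 4 and at its lowest, 112 CPM, in wt pool 1. Ascl2 made up 12.3% to 74.8% of the Hand1 CPM value across ExE pools.

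Over the 11 ExE pools, likeness to Ascl2, Hand1, Plac1 and Fosl1 was measured as the root mean square difference of centred log2 CPM. It was taken for 10795 other genes, with the members themselves left out. Gata2 lay closest to Ascl2 (0.30 log2 units, against 1.11 for the spread of Ascl2 around its own mean), followed by Ldoc1 (0.32) and Elf3 (0.36). Gata2 was at 91.8, 53.7 and 14.97 CPM in Tet1gt/gt, 73.6, 35.1, 77.3 and 32.1 CPM in Tet1gt/wt and 12.1, 31.7, 11.5 and 19.2 CPM in wt ExE pools, so its 4 highest pools were those of Ascl2. Among these other genes Plac1 had no close match: Vgll1 (1.21), 1600014K23Rik (1.25) and Krt7 (1.26) came nearest, against 2.25 for Plac1 around its own mean. Ppp1r18 (0.21), Anxa2 (0.22) and Arhgap27 (0.24) were nearest to Hand1 (0.51), and Ccdc90b (0.23), Alg14 (0.23) and Scyl3 (0.28) to Fosl1 (0.42), where the few counts of Fosl1 limit the comparison. The pools of a gene pair share libraries and depth, so these distances describe the 11 pools only.

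**Figure D4:**
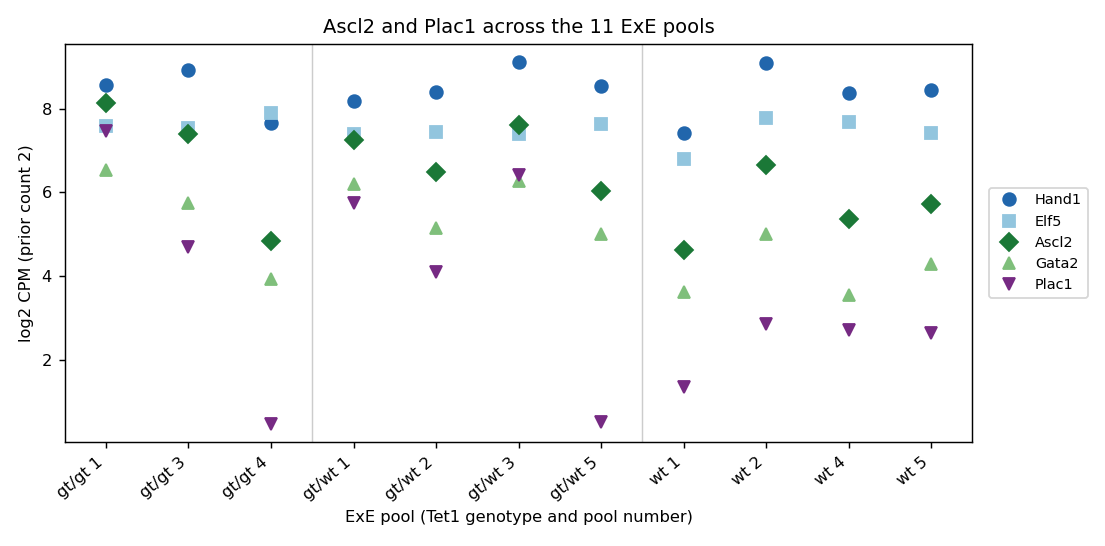
Hand1, Elf5, Ascl2, Gata2 and Plac1 in the 11 ExE pools (horizontal axis, Tet1 genotype and pool number), as log2 CPM with a prior count of 2 (vertical axis). Plac1 spans 1.13 to 176 CPM and Ascl2 24.5 to 282 CPM, with Gata2 following Ascl2, whereas Hand1 and Elf5 stay within 3.25-fold and 2.14-fold.

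Markers of neighbouring tissues also differed between ExE pools. The epiblast list, 10 genes of which all had counts in every ExE pool, summed to 2287 CPM in Tet1gt/gt pool 1 and 2484 CPM in Tet1gt/wt pool 3, the highest pools for Ascl2, and to 5270.1 CPM in wt pool 1, the lowest. Tet1gt/gt pool 3 does not follow that order, with 4458 CPM of epiblast genes and 169 CPM of Ascl2. In ExE against E, 7 of these 10 genes were called lower and 1 higher, so the sum does not gauge epiblast cells alone. In Tet1gt/gt pool 1, Pou5f1 was at 36.6 CPM and Fgf5 at 5.80 CPM, and most of its sum came from other genes of the list. Over all genes 22.1% were called higher and 23.9% lower in that contrast. Visceral endoderm genes, which ring both tissues in the embryo, summed to 249 CPM in wt pool 1, against 14.98 to 108 CPM in the other 10 ExE pools. The part of carried-over epiblast or endoderm in the spread of Ascl2 and Plac1 was not tested.

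Ascl2 and Plac1 shared their 4 highest ExE pools, though not in the same order. The sequences before their starts are given to show how different these are in base composition. The 250 bases upstream of each start (RefSeq, GRCm38.p6, minus strand) are Ascl2 at chr7:142969265-142969514 and the pair of Plac1 starts at chrX:53240111-53240360 and chrX:53114406-53114655. E-box letters (CANNTG, a palindrome read once for both strands) are in capitals.
Ascl2: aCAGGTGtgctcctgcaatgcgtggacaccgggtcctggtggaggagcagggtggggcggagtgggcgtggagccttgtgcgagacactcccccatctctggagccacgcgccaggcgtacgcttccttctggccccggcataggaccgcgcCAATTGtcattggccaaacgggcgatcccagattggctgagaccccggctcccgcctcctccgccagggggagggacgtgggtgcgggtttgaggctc
Plac1, first start: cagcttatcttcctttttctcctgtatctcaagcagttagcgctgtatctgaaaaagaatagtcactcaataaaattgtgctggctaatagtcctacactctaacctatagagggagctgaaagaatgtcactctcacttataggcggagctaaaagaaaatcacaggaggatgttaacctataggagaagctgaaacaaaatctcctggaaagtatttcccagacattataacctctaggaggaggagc
Plac1, second start: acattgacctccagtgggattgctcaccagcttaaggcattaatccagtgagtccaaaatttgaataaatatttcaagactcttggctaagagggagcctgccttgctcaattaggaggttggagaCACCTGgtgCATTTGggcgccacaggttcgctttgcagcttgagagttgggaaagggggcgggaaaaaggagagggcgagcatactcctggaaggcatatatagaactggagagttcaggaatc
The Ascl2 sequence is 67.6% GC with 19 CpG pairs and 2 E-boxes, the first Plac1 sequence 40.4% GC with 2 CpG pairs and 0 E-boxes, and the second 48.8% GC with 4 CpG pairs and 2 E-boxes. Over 32851 promoter sequences of the same length the medians were 52.4% GC and 6 CpG pairs, and 66.2% held an E-box, so an E-box in these windows is common. An AP-1 motif (TGANTCA on either strand) stood in 6.75% of promoters and, of the 5 members found in the RefSeq table, in 1 place each in Tpbpa and Prl3d1. Such matches describe letters and not binding.

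Between genotypes in ExE no gene of the 12355 tested was called (0% in each of the 3 contrasts), so none of the members was. Tet1 itself was not called in this fit, although its ExE levels did not overlap between genotypes. At an unadjusted p under 0.05 there were 935 genes for Tet1gt/gt against wt, 510 for Tet1gt/wt against wt and 800 for Tet1gt/gt against Tet1gt/wt, and DESeq2 called 13 higher and 3 lower, 18 lower and 8 higher in these contrasts in turn, none of them a member. Ascl2 averaged 160 ± 127 CPM in Tet1gt/gt (SD, n = 3), 126 ± 59.5 CPM in Tet1gt/wt and 54.4 ± 32.4 CPM in wt ExE (n = 4 each). Plac1 averaged 67.6 ± 94.6, 39.3 ± 37.8 and 5.37 ± 2.11 CPM in the same groups. Of the Tet1gt/gt pools 2 of 3 lay above every wt pool for both genes, and the remaining pool, pool 4, lay below every wt pool for Plac1. Of the Tet1gt/wt pools 2 of 4 lay above every wt pool for Ascl2 and 3 of 4 for Plac1, and pool 5 lay below every wt pool for Plac1. Among all genes, how many order the pools in these ways was not counted, so these orders only describe the pools.

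Against wt, the log2 fold change of Ascl2 was 1.53 ± 0.61 SE in Tet1gt/gt (adjusted p = 0.576) and 1.23 ± 0.57 in Tet1gt/wt (adjusted p = 1.0). Plac1 gave 3.66 ± 1.21 in Tet1gt/gt (adjusted p = 0.513) and 2.90 ± 1.14 in Tet1gt/wt (adjusted p = 1.0). Both contrasts use the same 4 wt pools, so their values are not independent of each other. The differences did not pass the test across all genes. Without Tet1gt/gt pool 1 the Tet1gt/gt values fell to 0.79 for Ascl2 and 1.22 for Plac1, and without Tet1gt/gt pool 4 they were 2.03 and 4.24. Without Tet1gt/gt pool 3, one of the libraries with a steep length slope, they were 1.51 and 4.04. With the pool number as a block they were 0.86 and 0.52 in Tet1gt/gt, and 0.55 and 0.39 in Tet1gt/wt, although the number is not known to mark shared litters across genotypes. Tet1gt/gt against Tet1gt/wt gave 0.30 ± 0.60 for Ascl2 and 0.77 ± 1.11 for Plac1, adjusted p = 0.966 and 0.956.

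Hand1 and Fosl1 showed no such offset. Hand1 averaged 356 ± 144 CPM in Tet1gt/gt, 390 ± 115 CPM in Tet1gt/wt and 349 ± 154 CPM in wt ExE, with log2 fold changes against wt of -0.00 ± 0.35 and 0.18 ± 0.33. Fosl1 averaged 2.59 ± 0.617, 1.59 ± 0.210 and 2.60 ± 1.20 CPM, with log2 fold changes against wt of -0.02 ± 0.70 in Tet1gt/gt and -0.68 ± 0.65 in Tet1gt/wt. All 3 Tet1gt/gt pools lay above all 4 Tet1gt/wt pools for Fosl1 (0.67 ± 0.70, not called), at 10 to 24 counts per pool. The share of all genes that part these groups was not counted, so the order only describes these pools. At these standard errors a difference of 1 log2 unit in either direction was not detectable for Fosl1. The missing call of Hand1 does not show that there is no difference either. In the same fit Phlda2, at 1.85 ± 0.47 in Tet1gt/gt against wt, was not called (edgeR adjusted p = 0.513).

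No other ectoplacental cone gene was called between genotypes. Of the 18 tested, 15 had a log2 fold change above 0 in Tet1gt/gt against wt ExE (median 0.75), where 47.7% of all genes did (median -0.02), and 16 in Tet1gt/wt against wt (median 0.38), where 51.2% of all genes did (median 0.01). These genes were measured in the same few pools, so their signs are not independent of each other. Values in Tet1gt/gt against wt were 1.85 ± 0.47 for Phlda2 (adjusted p = 0.513), 1.30 ± 0.40 for Rhox9 and 1.48 ± 0.51 for Rhox6. Rhox6 and Rhox9 are related homeobox genes of trophoblast, and whether they share reads was not examined. Phlda2, an imprinted neighbour of Ascl2, was at 912, 982 and 161 CPM in Tet1gt/gt, 480.5, 291, 583 and 257 CPM in Tet1gt/wt and 118, 224, 227 and 178 CPM in wt ExE pools. The Phlda2 pools again overlapped through Tet1gt/gt pool 4. Without Tet1gt/gt pool 3 the value was 1.52 for Phlda2, 0.93 for Rhox9 and 0.78 for Rhox6, and 14 of the 18 cone genes were above 0 (median 0.55). Of the 8 giant cell genes tested, 6 were above 0 in Tet1gt/gt (median 0.16) and 5 in Tet1gt/wt (median 0.19), with 3 above 0 in Tet1gt/gt without pool 3 (median -0.10). Of the 15 trophoblast stem cell regulators 4 were above 0 in Tet1gt/gt (median -0.28) and 9 in Tet1gt/wt (median 0.03).

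Markers of other tissues were not called either. Of the epiblast list 0 of 10 genes were above 0 in Tet1gt/wt against wt ExE (median -1.24) and 3 of 10 in Tet1gt/gt (median -0.10), with summed levels of 2287 to 4458 CPM in Tet1gt/gt, 2484 to 3224 CPM in Tet1gt/wt and 3101 to 5270.1 CPM in wt pools. Of the visceral endoderm list 2 of 10 were above 0 in Tet1gt/gt (median -0.75) and 1 of 10 in Tet1gt/wt (median -2.03), with summed levels of 14.98 to 108, 16.5 to 42.1 and 17.8 to 249 CPM. Of the maternal decidua genes 6 of 7 were above 0 in Tet1gt/gt (median 2.46) and 4 of 7 in Tet1gt/wt (median 0.32). Without Tet1gt/gt pool 3, 7 of 9 decidua genes were above 0 in Tet1gt/gt (median 1.52). The part of these tissues in the values of Ascl2, Plac1 and Phlda2 was not tested.

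In E only Ascl2 and Hand1 passed the filter. Ascl2 averaged 4.83 ± 3.45 CPM in Tet1gt/gt, 9.82 ± 11.8 CPM in Tet1gt/wt and 5.85 ± 7.27 CPM in wt E (SD, n = 4 each), and Hand1 averaged 18.7 ± 26.3, 39.2 ± 74.0 and 16.6 ± 21.0 CPM. Neither was called between genotypes, where 0.0161% of 12405 genes were called in Tet1gt/gt against wt and 0% in the other contrasts. Against wt, the log2 fold change in Tet1gt/gt was -0.29 ± 0.94 for Ascl2 and 0.16 ± 1.54 for Hand1, and in Tet1gt/wt 0.72 ± 0.94 and 1.22 ± 1.55. Without E Tet1gt/wt pool 4 the Tet1gt/wt values turned to -0.56 for Ascl2 and -2.90 for Hand1, and Hand1 in Tet1gt/gt was -1.41 to 1.50 when a pool was left out. The genotype effect in ExE minus that in E was 1.86 ± 1.20 for Ascl2 and 2.82 ± 1.96 for Plac1 in Tet1gt/gt, and 0.51 ± 1.15 and 3.94 ± 2.15 in Tet1gt/wt, each at an adjusted p of 1.0, with 0% of genes called, 416 and 716 genes at an unadjusted p under 0.05 and 1 higher and 2 lower, and 2 higher and 26 lower, called by DESeq2.

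Prl3d1 had counts in 7 of 11 ExE and 7 of 12 E pools and belonged to a few of them. It was at 0.135, 14.1 and 2.52 CPM in Tet1gt/gt, 0, 0, 0.223 and 0.213 CPM in Tet1gt/wt and 0.480, 0, 0 and 0.541 CPM in wt ExE pools. In E it was at 2.13, 0.520, 0 and 0 CPM in Tet1gt/gt, 0.319, 0.806, 0.176 and 0 CPM in Tet1gt/wt and 0, 0.549, 0 and 0.148 CPM in wt pools. ExE Tet1gt/gt pool 3, one of the 3 libraries in which short transcripts read high, stood far above all others. The Prl3d1 transcript, at 872 bases, is the shortest of the 7, and the part of transcript length in this value was not tested. Between tissues Prl3d1 overlapped (log2 fold change 0.67 ± 1.00, edgeR adjusted p = 0.622). Reads of Prl3d1 cannot be fully parted from those of its copies Prl3d2 and Prl3d3, whose coding sequences are 97.9% and 98.7% identical to it over 669 bases. The first 75 coding bases, about the length of a read, are given as an example (GENCODE M21 transcripts on GRCm38, chromosome 13, plus strand). The 2 positions that differ among the copies are in capitals, so this stretch is closely alike but not identical between them.
Prl3d1: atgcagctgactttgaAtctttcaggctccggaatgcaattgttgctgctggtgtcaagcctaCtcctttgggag
Prl3d2: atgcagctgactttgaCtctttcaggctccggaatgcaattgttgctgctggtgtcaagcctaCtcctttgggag
Prl3d3: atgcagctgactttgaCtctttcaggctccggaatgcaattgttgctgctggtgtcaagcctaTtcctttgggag
In all, 37.8% of the 75-base windows of the Prl3d1 transcript are shared with a copy. The copies had counts in the pools with most Prl3d1 counts. Prl3d1, Prl3d2 and Prl3d3 had 62, 32 and 23 counts in ExE Tet1gt/gt pool 3, 20, 10 and 8 in ExE Tet1gt/gt pool 4, and 19, 9 and 5 in E Tet1gt/gt pool 1. Pools with few counts differed, with 0, 6 and 2 in ExE wt pool 4 and 4, 0 and 0 in ExE wt pool 5.

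Prl8a2 and Prl3c1, from the list of genes of the maternal decidua, which borders giant cells, were highest in ExE Tet1gt/gt pool 3 as well. Prl8a2, a prolactin family gene of decidual cells, was at 13.2, 175 and 17.5 CPM in Tet1gt/gt, 1.31, 0.143, 13.4 and 5.43 CPM in Tet1gt/wt and 2.16, 0, 1.19 and 11.1 CPM in wt ExE pools. Its highest E pool was Tet1gt/gt pool 1 at 19.5 CPM, also the highest E pool for Prl3d1. Prl3c1, another prolactin gene of the list, was at 16.9 CPM in ExE Tet1gt/gt pool 3 and 4.93 CPM in E Tet1gt/gt pool 1, and Tet1gt/gt against wt in ExE gave 4.20 ± 1.27 for Prl8a2 and 4.23 ± 1.59 for Prl3c1, neither called. Without ExE Tet1gt/gt pool 3 these were 2.10 and 2.22. The 14 decidua genes summed to 37.3 to 316 CPM in Tet1gt/gt, 24.2 to 38.4 CPM in Tet1gt/wt and 17.5 to 213 CPM in wt ExE, with 1 to 9 of them at 0 in a pool, and to 250 to 579 CPM in E, where Gja1 of this list is also expressed. Within ExE, wt pool 1 had the second highest decidua sum, 213 CPM, with 0.480 CPM of Prl3d1 and 2.16 CPM of Prl8a2. That pool also had the highest epiblast sum in ExE, 5270.1 CPM. The part of transcripts that E also has, such as Gja1, in its decidua sum was not tested. Whether the Prl3d1 counts came from giant cells left on the tissue with decidua was not tested. Without E Tet1gt/gt pool 1, Prl3d1 no longer passed the filter on low counts, and without ExE Tet1gt/gt pool 3 its ExE over E log2 fold change was 0.00, against 0.67 with it.

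**Figure D5:**
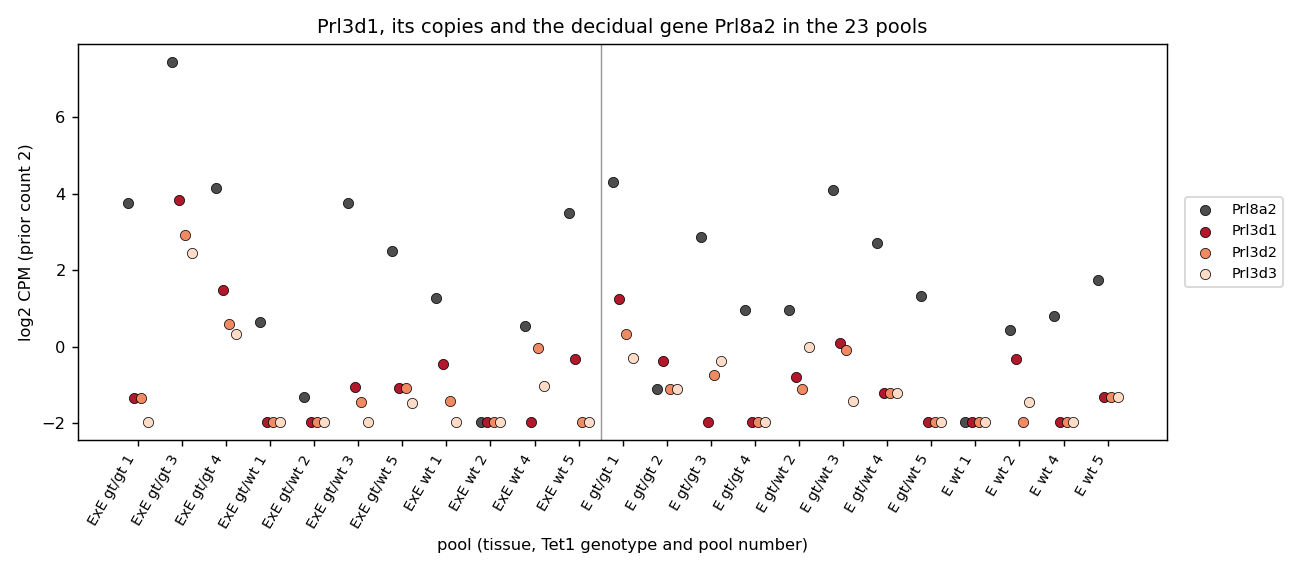
Prl3d1, its copies Prl3d2 and Prl3d3 and the decidual gene Prl8a2 in the 23 pools (horizontal axis, ExE left of E, with Tet1 genotype and pool number), as log2 CPM with a prior count of 2 (vertical axis). All 4 genes are highest in ExE Tet1gt/gt pool 3, where Prl8a2 reached 175 CPM and Prl3d1 14.1 CPM.

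Tpbpa had 0 counts of 87520023 in the 11 ExE libraries together, which allows up to 0.0343 CPM for counting error alone, and 1 count of 91946888 in the 12 E libraries, in Tet1gt/gt pool 1. Its copy Tpbpb had 0 counts in both tissues. Tpbpa was thus not detectable in ExE pools in which Ascl2 reached 282 CPM and Phlda2 982 CPM.

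Gcm1 had 30 counts in all, in 5 of 23 libraries. ExE Tet1gt/wt pool 5 had 12 (1.28 CPM), ExE wt pool 5 had 6 (0.811 CPM), E wt pool 1 had 7 (0.920 CPM), E wt pool 5 had 4 (0.591 CPM) and E Tet1gt/wt pool 5 had 1 (0.131 CPM). All 4 libraries numbered 5 had a Gcm1 count, 23 of the 30, while no Tet1gt/gt library did and none of these is numbered 5. Summed over libraries, Gcm1 stood at 0.206 CPM in ExE and 0.131 CPM in E. Gcm2, its relative, had no count. Neither Tpbpa nor Gcm1 passed the filter, so neither was tested.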

How the data were processed

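The deposited file was a single table of raw counts, one line a gene, for 23 libraries, as whole numbers with no normalisation by the authors. RNA (1 to 10 ng per pool, integrity number above 8) was amplified with the SMARTer Ultra Low kit and sequenced from 1 end to 75 bp, per the labels' protocols. Reads were handled with cutadapt 1.7.1 and TopHat2 2.0.12, per the submitters' processing notes, and for the counting program, annotation and strand setting the sources used here give nothing. With no strand, overlapping genes such as Fosl1 and Ccdc85b cannot be parted. Intervals and floors (3 counts, 0.312 to 0.683 CPM per library) cover counting error alone, because reads amplified by PCR and carrying no molecular identifiers can repeat a molecule.

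Counts were tested with the quasi-likelihood test of edgeR 4.0.16 (R 4.3.3) after filterByExpr (minimum count 10, minimum total 15) and TMM scaling, two-sided, with Benjamini-Hochberg adjustment over all genes and a threshold of 0.05. Genotypes were compared in 1 fit per tissue, tissues and the difference of genotype effects in 1 fit of all 23 libraries. Scripts were tested on simulated data. Alternatives were RLE factors, no filter, DESeq2 1.42.0, limma-voom (limma 3.58.1), a block for the pool number, leaving out each library (for the gene lists in Tet1gt/gt ExE, pool 3 alone, added after the data were seen), the 3 libraries with steep length slopes or, chosen after the data were seen, 5 E libraries, and for the genotypes 1 fit of all libraries. Log2 fold changes are given ± SE. The 33 pairs of libraries of 1 group differed beyond counting noise (chi-square 12.3 to 118 per degree of freedom). Beyond the pool labels nothing shows that pools are independent, so p-values measure the spread between pools.

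The members and gene lists were chosen with earlier results of these data known. The members are given whatever their p. Of each list up to 4 genes of smallest p in the tissue contrast, and up to 3 in each contrast with wt in ExE, may be named, with near-identical copies and the 3 nearest genes of each member whose mean log2 CPM in ExE reached 1. Positions, transcript lengths and shared windows came from GENCODE M21 on GRCm38. Per the labels, equally numbered E and ExE pools share litters in 3 of 4 replicates. The number was thus taken to pair the tissues in the counts of pairs and in the block setting. The main tests did not use this pairing and treated the pools as separate. The wt pools share 4 numbers, and which of these marks no shared litter is not given. Deviations of the 10 pairs of equally numbered pools correlated at -0.04 to 0.46 (median 0.07). Across genotypes the pools share only a number.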

Additional observations from a re-analysis of the deposited data

Results flagged for a closer look

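Of 30 groups of 4 pools in which a gene could be examined, 10 had a pool far from the others by Dixon's criterion, where chance flags about 1 in 20. In E Tet1gt/wt, pool 4 stood apart for Ascl2 (27.4 CPM), Hand1 (150.2 CPM) and Fosl1 (0.528 CPM). This pool is one of the 3 with steep length slopes and one of the 5 with most Cdx2 and Elf5. For Fosl1, ExE wt pool 4 (4.39 CPM), E Tet1gt/gt pool 3 (0.173 CPM) and E wt pool 4 (0.271 CPM) also stood apart, the E values resting on 1 and 2 counts. For Gcm1 the pools numbered 5 stood apart in ExE Tet1gt/wt (1.28 CPM), ExE wt (0.811 CPM) and E Tet1gt/wt (0.131 CPM). For Tpbpa the only count of the series put E Tet1gt/gt pool 1 apart (0.112 CPM). A group in which a single pool has a count is flagged whatever its size, which holds for 7 of the 10.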

How the results depend on the processing

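The 4 calls of Ascl2, Hand1, Plac1 and Fosl1 as higher in ExE over all genotypes held under all 7 other settings and all 23 fits that left out a library, with log2 fold changes of 3.96 to 5.25, 3.96 to 7.95, 5.47 to 7.73 and 4.53 to 7.16 across the settings. When a library was left out, the number of the 7 genes called higher in ExE was 3 to 4 in Tet1gt/gt, 2 to 4 in Tet1gt/wt and 2 to 4 in wt. With the pool number as a block, which pairs the tissues, Hand1 in Tet1gt/wt was called (7.70) and Fosl1 in Tet1gt/gt was lost (5.47); it changed no other member's call.

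Several values changed sign, none of them called. For Hand1, Tet1gt/gt against wt in ExE was 0.04 with RLE, 0.04 with DESeq2, 0.02 with voom, 0.00 with the block and 0.03 in 1 fit of all libraries, and Tet1gt/wt against wt was -0.03 with the block. For Fosl1, Tet1gt/gt against wt in ExE was 0.00 with RLE, 0.00 with DESeq2, 0.04 with voom and 0.01 without the 3 libraries. Tet1gt/gt against Tet1gt/wt in ExE was -0.14 for Ascl2 and -0.12 for Plac1 with voom and 0.04 for Hand1 with the block. In E, Hand1 in Tet1gt/gt against wt was -0.79 with voom, -1.16 with the block, -1.42 without the 3 libraries and -1.35 without the 5, and in Tet1gt/wt -1.23 with voom and -2.90 without the 3, where Ascl2 was -0.55. Prl3d1 in ExE against E was -0.21 without the 3 libraries and, in wt, -0.46 without the 5. The cause was not tested.

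Leaving out 1 library gave, for Hand1 in ExE, -0.27 to 0.32 (Tet1gt/gt against wt), -0.05 to 0.49 (Tet1gt/wt against wt) and -0.44 to 0.09 (Tet1gt/gt against Tet1gt/wt); for Fosl1 -0.25 to 0.34 (Tet1gt/gt against wt); and for Tet1gt/gt against Tet1gt/wt -0.44 to 0.80 (Ascl2) and -1.67 to 1.48 (Plac1). In E it gave, against wt, -0.68 to 1.06 and -0.56 to 2.07 for Ascl2 and -1.41 to 1.50 and -2.90 to 2.56 for Hand1 in Tet1gt/gt and Tet1gt/wt. The Tet1gt/wt effect in ExE minus E was -0.81 to 1.79 for Ascl2, and Prl3d1 in wt ExE against E was -0.18 to 2.08. Depth limits Fosl1, Gcm1, Prl3d1 and Tpbpa, which rest on few counts, and 3 or 4 pools per group leave standard errors above 1 on the log2 scale for Plac1 between genotypes.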
